A study of Mus musculus with 6 samples.

Results

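Expression was compared between the arrays with high and with low levels of late granulocyte genes in a series of mouse AML1-ETO9a leukaemias. The split was chosen from the measured values: the log2 levels of Ltf, Camp, Ngp, S100a8, S100a9, Lcn2, Mmp8 and Cd177 were averaged on each of the 6 arrays, and the 3 arrays with the highest mean were set against the other 3. The marker-high arrays were wildtype replicate 1 and knockout replicates 2 and 3. The marker-low arrays were wildtype replicates 2 and 3 and knockout replicate 1. All 6 arrays of the series were used, and 19938 genes were measured. Since the markers and all other genes came from the same arrays, differences between the classes are given as a description, with no test.

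Each sample was GFP-positive cells sorted from the spleen, on a C57BL/6 background, and the GFP marks cells that express AML1-ETO9a, a truncated form of a leukaemia fusion protein. Fetal liver cells with wildtype or floxed alleles of AES (a truncated relative of the Groucho/TLE co-repressors) had received AML1-ETO9a and been transplanted, and the recipients were given tamoxifen 4 weeks later. The 3 wildtype and 3 knockout samples thus share the fusion protein, the transplant and the tamoxifen. Wildtype cells were taken when leukaemia killed the recipient, whereas knockout cells were taken when the experiment ended. Genotype therefore cannot be told apart from the time of collection. The sources used here do not give the driver of the deleting recombinase or the age of the animals, and the labels do not state whether each replicate is a different mouse. The p-values therefore reflect only how far these particular samples vary. The Y-linked gene Uty had a log2 value of 9.18 on knockout 2 and of 4.14 and 4.77 on knockout 1 and knockout 3. Xist, the X-inactivation transcript, had 5.84 on knockout 2 and 4.88 and 5.66 on knockout 1 and knockout 3. On wildtype 1, wildtype 2 and wildtype 3 it had 9.11, 7.41 and 5.08. Whether the knockout samples differed in sex or source was not tested. Array medians ran from 6.47 to 6.65 on the log2 scale.

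Neutrophils store antimicrobial proteins in granules that are made in sequence. Primary granules, with myeloperoxidase and serine proteases, form in promyelocytes, and secondary and tertiary granules, with lactoferrin, cathelicidin and gelatinases, form in later cells under the control of C/EBP factors, above all C/EBP epsilon. AML1-ETO proteins are known to hold back granulocytic maturation, so that levels of late granule genes are read as a sign of how far blasts, or other cells in the sample, have matured. In bulk RNA, fewer cells of a type and less RNA per cell cannot be told apart.

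Promoters of the markers are shown because their levels moved together over the arrays. The sequences are from RefSeq (GRCm38.p6), and all 8 markers matched. They cover the 250 bases before the annotated start site, 5′ to 3′ on the gene's strand. Capitals mark matches on either strand to TTNNGCAA, the core of a C/EBP site. The windows are chr9:111019042-111019291 (plus strand), chr9:110419558-110419807 (plus), chr2:32387740-32387989 (minus) and chr9:7558179-7558428 (plus).
Ltf: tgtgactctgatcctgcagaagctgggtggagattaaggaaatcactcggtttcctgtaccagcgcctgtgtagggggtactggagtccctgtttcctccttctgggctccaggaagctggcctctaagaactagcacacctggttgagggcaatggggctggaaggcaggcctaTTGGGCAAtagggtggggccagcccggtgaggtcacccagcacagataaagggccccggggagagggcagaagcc
Ngp: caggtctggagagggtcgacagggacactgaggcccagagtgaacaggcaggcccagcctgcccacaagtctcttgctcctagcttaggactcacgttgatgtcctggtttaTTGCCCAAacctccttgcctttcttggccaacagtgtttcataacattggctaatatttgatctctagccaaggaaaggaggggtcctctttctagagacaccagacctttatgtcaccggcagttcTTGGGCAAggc
Lcn2: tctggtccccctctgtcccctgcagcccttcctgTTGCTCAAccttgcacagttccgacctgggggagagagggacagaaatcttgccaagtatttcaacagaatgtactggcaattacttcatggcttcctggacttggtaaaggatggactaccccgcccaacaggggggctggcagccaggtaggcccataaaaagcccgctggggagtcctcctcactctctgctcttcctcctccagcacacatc
Mmp8: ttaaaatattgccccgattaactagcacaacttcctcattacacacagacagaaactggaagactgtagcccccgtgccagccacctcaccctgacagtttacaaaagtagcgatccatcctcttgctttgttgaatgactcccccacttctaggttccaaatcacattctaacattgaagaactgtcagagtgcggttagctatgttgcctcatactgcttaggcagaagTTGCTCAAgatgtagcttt

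The first base of the match lies 75 bases before the start site in Ltf, 138 and 11 in Ngp, 216 in Lcn2 and 19 in Mmp8. S100a9 also held a match, 236 bases before its start, and Camp, S100a8 and Cd177 held none in this window. Thus 5 of 8 markers held the letters, against 9.56% of all 32851 promoter windows of the same length. The PU.1 core GAGGAA, on either strand, was also found in 5 of the 8, against 23.2% of all windows; matches to these motifs cannot overlap each other. Ltf, Ngp and Camp lie near each other on chromosome 9, and S100a8 and S100a9 are neighbours on chromosome 3. A match is a description of these letters and not evidence of binding.

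Across the arrays the marker mean was 9.86 on knockout 3, 9.51 on wildtype 1 and 9.46 on knockout 2, and 7.74, 5.59 and 5.49 on wildtype 2, wildtype 3 and knockout 1. The 3 marker-high arrays lay within 0.393 of each other. The last array inside the high class, knockout 2 at 9.46, and the first outside it, wildtype 2 at 7.74, were 1.72 apart. A gap of 2.15 lay inside the low class, between wildtype 2 and wildtype 3, so that the arrays stood at 3 levels rather than 2. Each class held both genotypes.

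Ngp, a granule protein related to cathelicidins, had the widest range, with log2 values of 10.45, 10.59 and 11.53 on wildtype 1, knockout 2 and knockout 3. It had 8.97, 5.06 and 4.70 on wildtype 2, wildtype 3 and knockout 1. The difference of class means was 4.61, or 24.5-fold. Lcn2, the iron-siderophore binding lipocalin, had 10.95, 10.79 and 11.59 on the high arrays in the same order and 9.06, 5.60 and 5.78 on the low arrays. S100a8 and S100a9, which form the calcium-binding protein calprotectin, differed by 4.09 and 3.88. S100a8 had 10.19, 9.88 and 10.48 against 8.11, 5.14 and 5.04. On wildtype 2 these genes lay clearly above the other low arrays and below every high array.

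The collagenase Mmp8 had 9.21, 9.19 and 8.80 on the high arrays and 6.75, 5.15 and 4.70 on the low arrays. Lactoferrin, encoded by Ltf, had 9.07, 9.21 and 9.28 against 7.21, 5.42 and 5.37. Camp, the cathelicidin, and Cd177, a neutrophil surface protein, had the smallest differences, 1.59 and 1.52. Camp had 8.04, 8.10 and 8.34 against 6.99, 6.29 and 6.41. For all 8 the classes did not overlap, which the choice of the markers fixes in advance. On wildtype 3 and knockout 1 most of the 8 lay below the array medians. No detection calls exist for these values, so folds against such levels depend on the background.

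**Figure D1:**
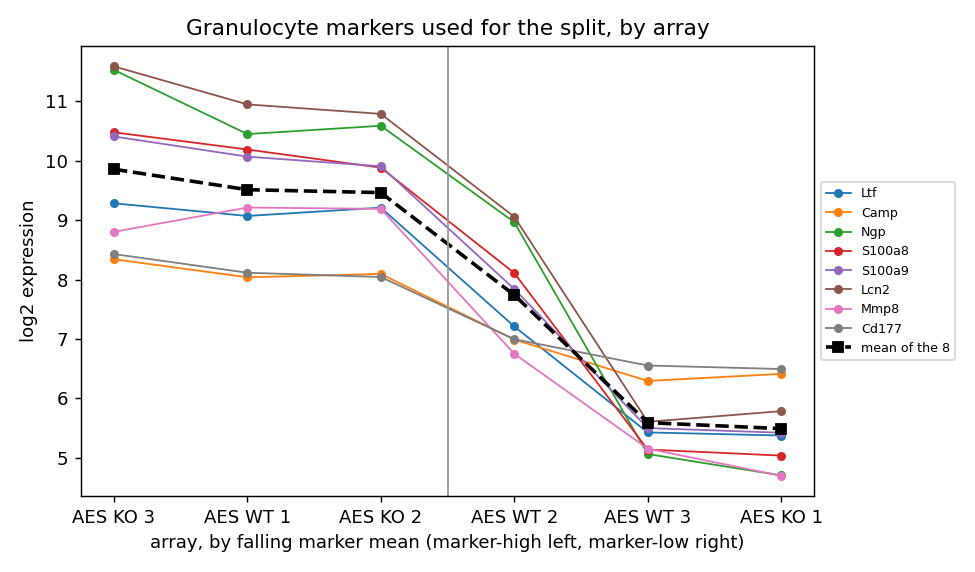
Log2 expression of the 8 granulocyte markers (coloured points) and their mean (black squares) on each of the 6 arrays, in order of falling mean; the vertical line separates marker-high from marker-low arrays, and each point is 1 array. The mean falls from 9.46 on knockout 2 to 7.74 on wildtype 2 and to 5.59 on wildtype 3.

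Each genotype held arrays of both classes, so the markers varied widely within a genotype, and their genotype means are given with no test. For Ltf the wildtype mean was 7.24 ± 1.82 (SD, n = 3) and the knockout mean 7.96 ± 2.24 (SD, n = 3). Ngp had means of 8.16 ± 2.78 and 8.94 ± 3.70 (SD, n = 3 each). Knockout means lay above wildtype means by 0.43 to 0.85 on the log2 scale over the 8 markers. The marker-high arrays were knockout 2, knockout 3 and wildtype 1, so the genotypes were not balanced over the classes. In a fit of genotype with the marker class as a further term, the differences ran from -0.85 (Ngp) to -0.02 (Camp). The sign for all 8 was thus reversed in this fit. The class was itself made from these markers, so no genotype direction can be read from it. Without wildtype 2 the same fit gave 0.19 for Ngp and 0.15 for Camp, and was negative only for Mmp8 (-0.32) and S100a8 (-0.05). The signs thus depended on the arrays used.

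Aes itself, listed under its current symbol Tle5, followed genotype and not the marker classes. It had 11.13 on wildtype 1 but 9.33 and 8.86 on knockout 2 and knockout 3 among the high arrays. Among the low arrays it had 11.10 and 11.11 on wildtype 2 and wildtype 3 and 8.80 on knockout 1. The knockout-minus-wildtype difference was -2.04 within the high class and -2.31 within the low class. In a limma fit of genotype with the marker class as a further term it was -2.17 (SE 0.16, adjusted p = 0.587), and without the class term -2.12 (SE 0.15, adjusted p = 0.234).

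Over all genes, limma called 0 of 19938 between the genotypes with the class term (0% called) at an adjusted p of 0.05, and 0 without it (0%). Aes itself was thus not called in either fit, so 0 calls do not show that no other gene differed. At an unadjusted p under 0.05 there were 889 genes with the class term and 505 without. Both counts lie below the share of 0.05 that this threshold passes on average when no gene differs. Ssbp2, an LDB1 partner named here after its value was seen, had the smallest p in the fit with the class term (log2 difference -3.33, SE 0.22, adjusted p = 0.587). The class came from these arrays, so the residual spread of genes that follow the markers may be understated in that fit, which has 3 residual degrees of freedom. Without knockout 2, the fit without the class term called 3 genes, Aes itself and the Y-linked Kdm5d and Uty. These Y-linked genes were low on knockout 1 and knockout 3, the knockout arrays left in that fit. The fit with the class term called 0 without knockout 2.

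Beyond the markers, 174 of 19930 genes were at least 2-fold higher on the marker-high arrays with no overlap between the classes (0.873% of genes), and 39 were at least 2-fold lower with no overlap (0.196%). Of these, 172 and 39 are protein-coding, and 49 higher (0.246% of genes) and 8 lower genes (0.0401%) were at least 4-fold apart. By the same rule 17 genes (0.0853%) were higher and 48 (0.241%) lower in AES knockout than in wildtype cells. These figures stand side by side only, since the marker classes were chosen from the data and the genotypes were not. At any fold, 901 genes (4.52%) were higher and 2680 (13.4%) lower without overlap. Most of the latter were small differences: the median over all genes was -0.06, and percentiles 5 and 95 were -0.40 and 0.52. Of the genes without overlap 74.8% were lower, and 87.1% when arrays were centred on their medians.

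Of the 174 higher genes, 160 also met the rule without wildtype 2, where 332 genes met it in all, since fewer arrays overlap less often. A gene without overlap cannot come to overlap when an array is left out, so only its fold could fail the rule. Wildtype 2 was the low array closest to the high class for 77 of the 174, wildtype 3 for 62 and knockout 1 for 35. The intermediate place of wildtype 2 among the markers was thus not shared by most of these genes. Of the 39 lower genes, 31 met the rule without wildtype 2. There wildtype 3 was the closest low array for 26, knockout 1 for 11 and wildtype 2 for 2.

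**Figure D2:**
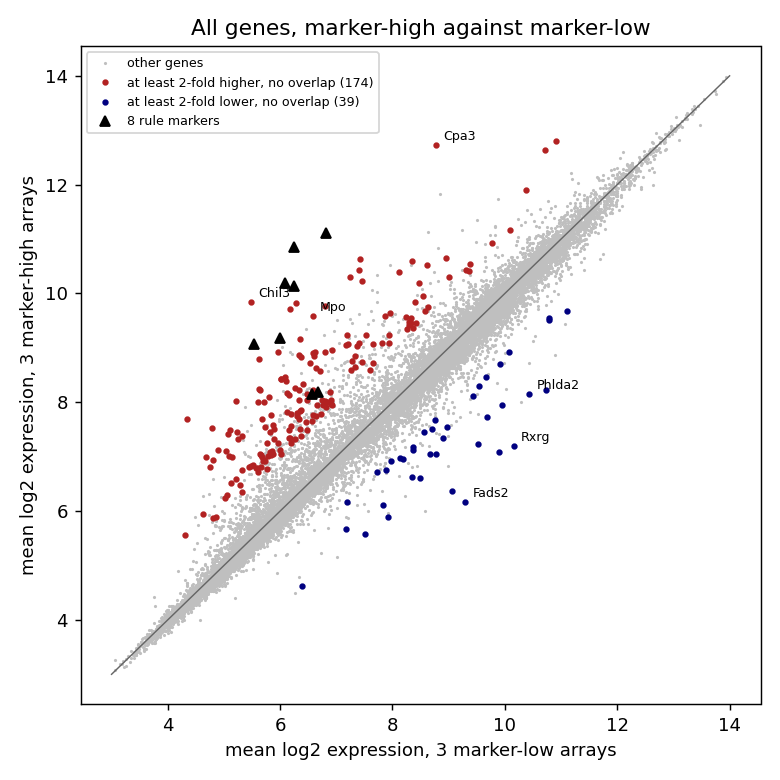
Mean log2 expression of each gene on the 3 marker-high arrays (vertical axis) against the 3 marker-low arrays (horizontal axis); red and blue points are genes at least 2-fold apart with no overlap, triangles the 8 rule markers, and the line marks equal means. There are 174 red and 39 blue points, and the red points reach further from the line.

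Other granulocyte genes, none of them among the 8 markers, were higher on the marker-high arrays. Chil3, a chitinase-like protein of late myeloid cells, had the largest difference of all, 4.35. It had 9.89, 8.94 and 10.68 on wildtype 1, knockout 2 and knockout 3 and 7.36, 4.46 and 4.64 on wildtype 2, wildtype 3 and knockout 1. The order of the low arrays was close to that of the markers. Of 20 other granule proteins measured, 19 had a higher mean and 14 were higher without overlap (70%, beside 4.52% of all genes), with a median difference of 0.88. The remaining member, Bpi, a bactericidal protein, was lower without overlap, with a difference of -0.13. Annexin A1, encoded by Anxa1, differed by 2.30 and Pglyrp1, a peptidoglycan-binding granule protein, by 2.26. Pglyrp1 had 8.98, 8.63 and 8.95 against 7.22, 6.18 and 6.39.

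Lysozyme, encoded by Lyz2 and shared with monocytes, differed by 2.57 but overlapped (3.89 without wildtype 2, 1.70 without knockout 1). It had 10.56, 10.63 and 10.36 on the high arrays, and 10.59 on wildtype 2 against 7.05 on wildtype 3 and 6.20 on knockout 1. Wildtype 2 therefore had high-class levels of lysozyme with intermediate levels of the late granule genes.

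Primary granule genes were also higher on the marker-high arrays, for 11 of 12 measured members, with a median of 1.21. Of the 12, 7 were higher without overlap (58.3%, beside 4.52% of all genes), and 1, the serine protease gene Prss57, was lower without overlap, by 0.92 on the log2 scale. Mpo, myeloperoxidase, had 10.08, 8.89 and 9.79 on wildtype 1, knockout 2 and knockout 3 and 7.40, 6.27 and 6.08 on wildtype 2, wildtype 3 and knockout 1. The serine protease Ctsg differed by 2.97 and neutrophil elastase, Elane, by 2.30. Ctsc, the protease that activates both, differed by 2.31 and had its highest value, 10.09, on wildtype 1 and its lowest, 5.21, on knockout 1. Genes of the first and of the later granules were thus high on the same 3 arrays.

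Of 32 listed genes of mature neutrophils, 25 were measured under 1 symbol. Of these 23 had higher means (92%, beside 35% of all genes) and 15 did not overlap (60%, beside 4.52%), with a median of 0.91. The resistin-like Retnlg had 9.85, 10.01 and 9.28 against 7.77, 5.36 and 5.37. The cystatin Stfa2 differed by 2.75, with 7.11, 6.95 and 8.52 against 4.68, 4.65 and 5.02, so that here wildtype 2 lay with the other low arrays. The chemokine receptor Cxcr2 and the membrane protein Ifitm6 differed by 2.23 and 2.40. Even on the high arrays Cxcr2 lay near the array medians, at 6.91, 7.56 and 6.92. The median of the list was 0.55 without knockout 1 and 1.25 without wildtype 2.

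Subunits of the phagocyte NADPH oxidase had higher means for 2 of 5 and a median of -0.13, which turned to 0.04 without knockout 2. Ncf1 differed by 1.00 without overlap. Cybb, the catalytic subunit, had 9.73, 9.15 and 9.997 on the high arrays, and 9.52 on wildtype 2 against 7.40 and 5.28 on wildtype 3 and knockout 1, the pattern of Lyz2.

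Transcription factors of granulocytes differed much less than the granule genes. Of 16 measured, 12 had higher means and 3 did not overlap (18.8%, beside 4.52% of all genes). Their median was 0.18 (0.11 without knockout 3 or with median centring). Cebpe, which drives secondary granule genes, had 6.93, 6.80 and 7.18 on the high arrays and 6.35, 6.54 and 6.57 on the low arrays, a difference of 0.48. Gfi1, a repressor needed for neutrophil formation, differed by 0.32 without overlap, and by 0.17 without wildtype 1. Both lay near the array medians. Myb, a factor of immature blasts, was high on all arrays, between 11.11 and 11.69, and differed by -0.31 with overlap.

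Among the receptors, that for G-CSF, Csf3r, had 7.10, 7.97 and 6.91 against 6.84, 6.05 and 5.90, a difference of 1.06. The stem cell factor receptor Kit was high on every array, 11.80, 11.48 and 11.53 against 11.28, 10.60 and 10.77. Of 13 receptors measured, 12 had higher means and 2, these same genes, did not overlap (15.4%, beside 4.52% of all genes). Kit and Csf3r therefore were both higher on the marker-high arrays. Kit is also on the lists of mast cell genes and of stem and progenitor genes, and Csf3r on that of mature neutrophils. The counts of these lists are thus not separate.

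Genes of mast cells and basophils had a median of 1.33, with higher means for 12 of 13 and 6 not overlapping (46.2%, beside 4.52% of all genes). The median was between 0.99 and 1.71 with single arrays left out. Cpa3, mast cell carboxypeptidase, had 13.04, 12.31 and 12.81 on wildtype 1, knockout 2 and knockout 3. On the low arrays it had 7.36 on wildtype 2, 11.69 on wildtype 3 and 7.24 on knockout 1. The order of the low arrays differed from that of the granulocyte markers, for which wildtype 2 was the highest of the 3. Ms4a2, the beta chain of the high-affinity IgE receptor, was also highest on wildtype 3 among the low arrays, with 12.78, 12.60 and 12.51 against 8.59, 12.27 and 11.30. Mcpt8, a basophil protease, had 8.22, 7.90 and 6.03 against 5.20, 5.68 and 5.08. Gata2, which acts in mast cells and in stem cells, differed by 1.94 but overlapped, since knockout 3 had 9.46.

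Stem and progenitor genes were mixed, with higher means for 15 of 24, 5 higher (20.8%, beside 4.52% of all genes) and 2 lower without overlap, and a median of 0.08. The median was -0.02 without wildtype 1 and 0.01 with median centring. Cd34, a surface protein of progenitors, differed by 3.17, with 9.87, 7.15 and 9.36 against 5.78, 5.76 and 5.33. The ETS factor Erg differed by 1.69 and had its highest value, 9.11, on wildtype 1, without which it differed by 1.04. The factor Hlf differed by 1.59, with 8.01, 9.11 and 6.25 against values between 6.16 and 6.25. On knockout 3 its level thus barely exceeded the low arrays, and without knockout 2 it differed by 0.93. Runx1t1, the gene of ETO, had 8.18, 8.15 and 8.08 against 7.37, 8.05 and 7.25, and Runx1 overlapped with a difference of 0.27 (0.10 without knockout 1). Whether their probes also read the fusion transcript was not tested.

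The other genes with the largest higher levels belong to no single group. Dnase2b, an acid nuclease, had 10.45, 10.96 and 8.05 against 5.60, 7.30 and 5.94. Rgs13, a regulator of G-protein signalling found in mast cells, had 8.95, 8.19 and 5.94 against 4.51, 4.30 and 4.24. The adaptor Grap2 differed by 3.21 and the Rac regulator Arhgap15 by 2.98. The myelin protein Pmp22 had 9.87, 12.80 and 8.25 against 6.96, 8.06 and 6.69, a difference of 3.06 that was 1.82 without knockout 2. Lamc1, a laminin chain, differed by 3.03, although knockout 1 at 9.69 lay near wildtype 1 at 9.92. Its knockout-minus-wildtype difference was 2.87. On knockout 3, Dnase2b and Rgs13 lay nearer the low arrays than on the other 2 high arrays.

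Genes at least 2-fold lower on the marker-high arrays were fewer than those 2-fold higher. Fads2, a fatty acid desaturase, had 6.61, 5.87 and 6.00 on wildtype 1, knockout 2 and knockout 3. It had 11.43, 9.44 and 7.01 on wildtype 2, wildtype 3 and knockout 1. The class difference was -3.13 (-2.06 without wildtype 2), and the knockout-minus-wildtype difference was close to it, -2.86. Rxrg, a retinoid X receptor, had 6.33, 6.86 and 8.39 against 10.84, 10.04 and 9.61, a difference of -2.97. Cda, cytidine deaminase, had 7.37, 7.24 and 6.64 against 11.43, 7.61 and 10.62. The ion cotransporter Slc12a2 showed the same order as Cda, with 9.86, 7.49 and 9.85 on the low arrays and at most 6.69 on the high arrays. For both, wildtype 3 stood closest to the high class.

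Gdf3, a TGF-beta family ligand, had 10.74, 10.65 and 10.84 on the low arrays and 9.44, 5.89 and 9.33 on the high arrays, so that knockout 2 made much of the difference of -2.52 (-1.36 without it). Phlda2, an imprinted gene, had its highest value, 12.19, on knockout 1. Dnph1, a nucleotide hydrolase, had 9.41, 9.76 and 9.38 against 8.52, 6.91 and 6.25. Neo1, Spns3, Trim58, Sfrp4 and Zcchc2 had differences between -2.02 and -1.88, and Zcchc2 one of -1.23 without wildtype 2. For Zcchc2 the knockout-minus-wildtype difference was -1.81. The integrin chain Itga5 had a small spread within each class, with 9.01, 8.82 and 8.96 against 10.01, 9.97 and 10.23.

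**Figure D3:**
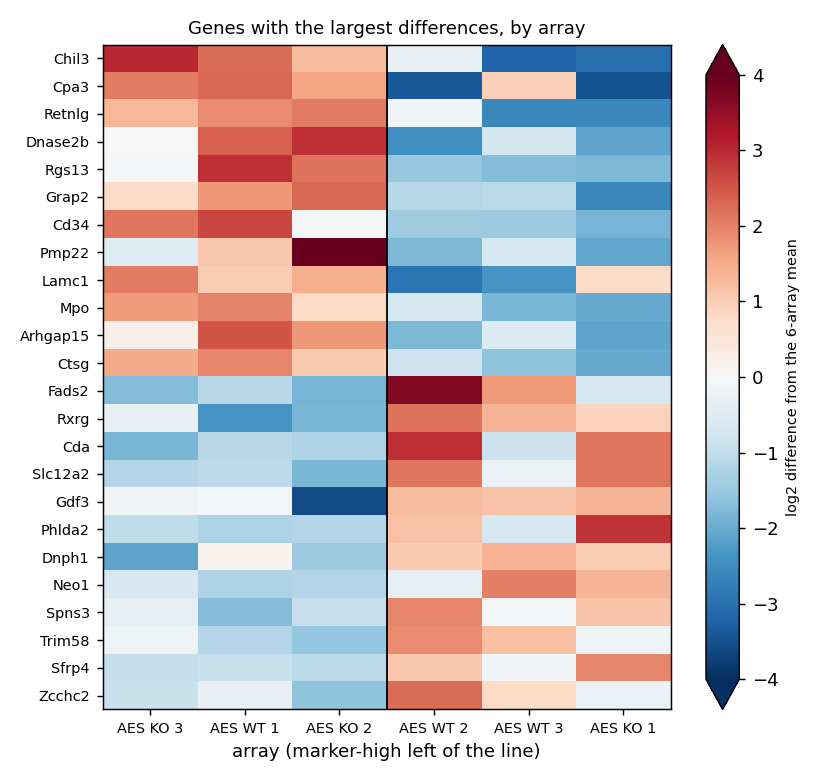
Log2 difference of each gene from its own 6-array mean (colour) for the 12 genes with the largest higher and the 12 with the largest lower levels on the marker-high arrays; columns are single arrays, the line separates the classes. Cpa3 is high on wildtype 3 among the low arrays, and Gdf3 is lowest on knockout 2.

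Ribosome biogenesis factors all had lower means on the marker-high arrays, 25 of 25 beside 65% of all genes. Their median difference was -0.34, and 13 were lower without overlap (52%, beside 13.4% of all genes). Rrp1b had 8.82, 8.77 and 7.79 against 9.46, 9.10 and 9.49, and the Pol I subunit Polr1b 10.32, 10.63 and 10.20 against 10.78, 10.67 and 10.95. The pseudouridine synthase Dkc1 differed by -0.46 with overlap (-0.25 without knockout 3). The list median stayed between -0.41 and -0.23 with single arrays left out, and was -0.23 without knockout 3. Mean deviations of the list were -0.10, -0.03 and -0.33 on wildtype 1, knockout 2 and knockout 3. They were 0.19, 0.01 and 0.27 on wildtype 2, wildtype 3 and knockout 1, so knockout 2 and wildtype 3 were close. Ribosomal proteins had a median of 0.02 (-0.04 with median centring). Enzymes of nucleotide synthesis had lower means for 16 of 17 (median -0.31, -0.18 without knockout 3). Of the 17, 8 were lower without overlap (47.1%, beside 13.4% of all genes). Their list had mean deviations of -0.06, 0.08 and -0.42 on wildtype 1, knockout 2 and knockout 3. On wildtype 2, wildtype 3 and knockout 1 these were 0.08, 0.11 and 0.21, so knockout 2 lay with the low arrays. Gart, a purine synthesis enzyme, had 10.67, 10.87 and 10.39 against 11.12, 10.92 and 11.30. Impdh1 was the exception, higher by 0.74 without overlap. The differences in these lists were small, under 2-fold for every member.

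Myc, which drives such genes, had 10.96, 11.55 and 11.05 on the high arrays and 11.52, 11.86 and 11.99 on the low arrays, a difference of -0.60 with overlap. Mxd4, an antagonist of Myc, had 10.03, 9.78 and 10.22 against 9.32, 8.90 and 9.39, a difference of 0.80. The cell cycle inhibitor Cdkn1b had 10.84, 10.93 and 11.01 against 10.41, 10.62 and 10.41. Btg2, an antiproliferative factor, differed by 1.07, also without overlap, and by 0.59 without knockout 1. They were the only 2 of 12 cell cycle inhibitors without overlap (16.7%, beside 4.52% of all genes). Of the 12, 8 had higher and 4 lower means, and the median was 0.12 (0.03 without wildtype 3). Of the 11 Myc network genes measured, with Myc and Mxd4 among them, 4 had higher means and the median was -0.02.

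Replication genes of G1/S had lower means for 24 of 26 (median -0.27) and mitotic genes for 21 of 24 (median -0.18), with 3 and 1 lower without overlap. At 11.5% and 4.17% these shares are near or below the 13.4% of all genes. Knockout 3 made most of these differences. The mitotic list had a mean deviation of -0.67 on knockout 3, while the remaining 5 arrays lay between -0.03 and 0.26. With knockout 3 left out the medians were -0.04 for G1/S and 0.13 for mitotic genes, so the latter changed direction. Without knockout 2 the median for G1/S was -0.45. Cdc6, a replication licensing factor, had 8.86, 9.24 and 8.22 against 9.25, 9.26 and 9.45.

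Markers of other spleen cells were examined beside the granulocyte genes. Monocyte and macrophage genes had higher means for 13 of 17 (median 0.69), but only 1 did not overlap (5.88%, beside 4.52% of all genes). Their mean level was 7.85, 7.33 and 7.95 on wildtype 1, knockout 2 and knockout 3. It was 7.98, 6.68 and 6.27 on wildtype 2, wildtype 3 and knockout 1, so that wildtype 2 lay above every high array. MHC class II genes had higher means for 9 of 11 (median 0.38), and 1 did not overlap (9.09%, beside 4.52% of all genes). They were likewise high on wildtype 2 and lowest on knockout 1. H2-Aa, the member with the largest difference, had 9.64, 8.87 and 9.18 on the high arrays. It had 9.32, 6.16 and 4.86 on wildtype 2, wildtype 3 and knockout 1. Its invariant chain Cd74 had 9.86 on wildtype 2 and 5.62 on knockout 1. Without wildtype 2 the median of the monocyte list was 1.19 and that of MHC class II genes 0.54. The latter was 0.62 without knockout 3 and 0.33 without knockout 1.

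Red pulp macrophage genes had higher means for 10 of 12 (median 0.65) and none without overlap. They were highest on knockout 3, where Spic, their defining factor, had 8.63, Vcam1 9.72 and Hmox1 9.25, while on knockout 2 Spic had 5.84. Without knockout 3 the median was 0.17, without knockout 1 it was 0.32, and without wildtype 2 or knockout 2 it was 1.06 or 1.16. The iron exporter Slc40a1 went the other way, with 9.76 and 9.62 on wildtype 2 and knockout 1. B cell genes had higher means for 15 of 15 (median 0.56, beside higher means for 35% of all genes). Only 1, Cd79b, did not overlap (6.67%, beside 4.52% of all genes). The median was 0.22 without knockout 3 and 0.36 without knockout 1, and 5 of the 15 genes lay above the array median on 3 or more arrays. T cell genes (median 0.01, 0 of 15 without overlap) and NK cell genes (median -0.05, 2 of 12 lower) were near the median of all genes, as were those of stroma and endothelium (median 0.06, 2 of 12 lower). For NK and stroma genes, 2 of 12 is 16.7%, beside 13.4% of all genes lower without overlap. The signs of the T cell and stroma medians turned with median centring. Only 1 of 12 NK genes lay above the array median on 3 or more arrays. The part of macrophages or other spleen cells in the granulocyte differences was not tested.

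Eosinophil genes did not follow the classes (median 0.006, -0.06 with median centring). Of 8 measured, 1 did not overlap (12.5%, beside 4.52% of all genes). Erythroid genes had a median of -0.14 with 0 of 15 not overlapping, and their mean deviation was 0.82 on knockout 2 and -0.95 on knockout 3, both marker-high. The erythroid median was 0.10 without knockout 3. Megakaryocyte genes had a median of 0.23 (0.03 without knockout 2), and the platelet glycoprotein Gp9 was lower by 1.00 on the log2 scale. Y-linked genes did not follow the classes either, since Uty had 9.03 and 9.18 on wildtype 1 and knockout 2 but 4.77 on knockout 3. It had 9.26, 9.30 and 4.14 on the low arrays.

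Response programmes differed between arrays of the same class. Immediate early and heat shock genes had higher means for 17 of 21 (median 0.35). Only 2, Ier2 and Ier3, did not overlap (9.52%, beside 4.52% of all genes). The mean deviation of the list was 0.74 on wildtype 1, -0.20 on knockout 2 and 0.10 on knockout 3. Its median was 0.07, 0.09 and 0.21 without wildtype 1, knockout 1 or wildtype 3 and 0.67 without wildtype 2. NF-kB and inflammatory genes had higher means for 16 of 20 (median 0.40) and 3 without overlap (15%, beside 4.52% of all genes). The neutrophil chemokine Cxcl2 had 9.20, 7.42 and 6.13 on the high arrays and 7.44, 4.995 and 4.88 on the low arrays. Interferon response genes had lower means for 19 of 24 (median -0.44, beside lower means for 65% of all genes), with 3 not overlapping (12.5%, below the 13.4% of all genes), and wildtype 3 alone had a mean deviation of 1.44. Without wildtype 3 the median was 0.08, and without knockout 1 it was -1.08. Hypoxia and glycolysis genes (median 0.01), the BCL2 family (-0.08) and adhesion receptors (0.10) showed no common direction. The glucose transporter Slc2a1 had 11.88, 13.06 and 11.37 against 11.33, 11.36 and 10.90.

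**Figure D4:**
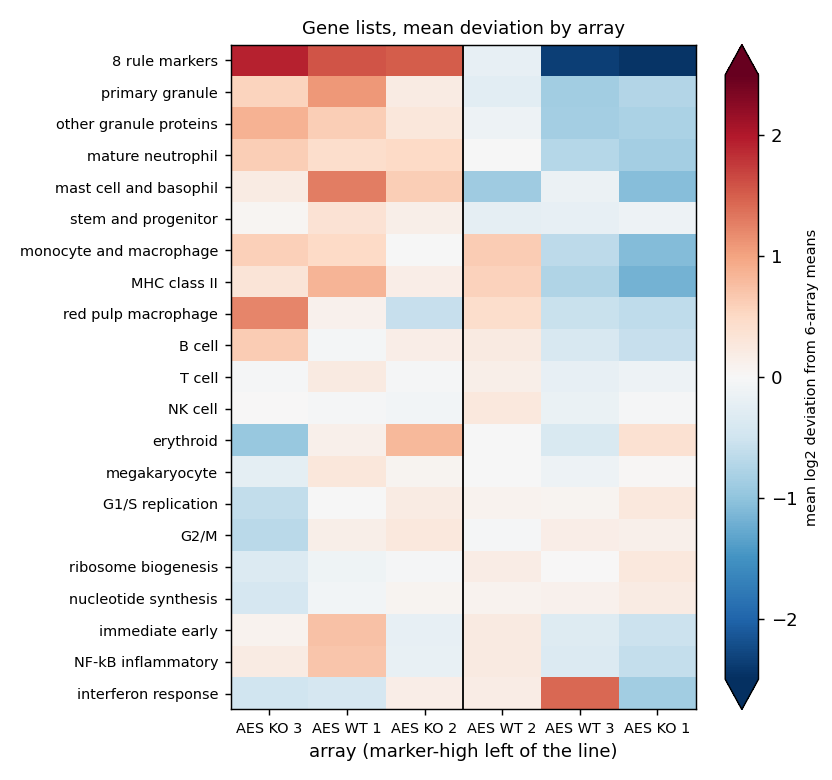
Mean log2 deviation of each gene list from the 6-array means of its genes (colour), by single array, with marker-high arrays left of the line. The granule and neutrophil lists follow the line, monocyte and MHC class II genes are also high on wildtype 2, and mitotic genes are low on knockout 3 alone (-0.67).

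The motif search was repeated on the genes 2-fold apart. TTNNGCAA was found before the start site of 9.42% of 138 higher genes with a promoter window and 8.82% of 34 lower genes, against 10.8% of all genes. GAGGAA was found for 42.0%, 38.2% and 25.9%. The share of C/EBP cores among the 8 markers was thus not seen among the wider group.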

How the data were processed

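RNA of 6 samples, 3 AES wildtype and 3 AES knockout, was measured on 1 array each. The authors deposited processed values from 2.67 to 14.4, used here as log2 values. The sources used here do not give the log base, background correction, probe summary or normalization. Of 35512 rows, 1 held no value. The platform annotation gave 1 symbol to 21789 rows, several to 1621 and none to 12102, and 21698 of the first were updated by gene identifier (GRCm38.p6). Per gene, the row with the highest mean was kept (19938 genes).

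The marker classes were computed from the 8 markers, which were left out of counts. Between classes no test was made: a gene counted when the classes did not overlap and means differed at least 2-fold. Genotype was tested with limma 3.58.1 (lmFit, eBayes, R 4.3.3), with and without the class, at a Benjamini-Hochberg adjusted p of 0.05. The fit with the class was tested on simulated data. Genes were named by rule: the markers, Aes, the 12 largest differences per direction without predicted names, and up to 4 largest per list. Members, lists and rules were chosen with earlier results of these data known. Alternatives were median centring, quantile normalization, only genes above the array median on at least 3 arrays (the dim-gene filter), the mean of a gene's rows, other folds, the replicate block, eBayes with trend and robust options, the marker score as covariate, and leaving out arrays or markers. Python 3.11.15 and matplotlib 3.10.9 were also used.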

Additional observations from a re-analysis of the deposited data

How the results depend on the processing

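The same 3 arrays were marker-high under all 11 alternatives tried for the score, with each of the 8 markers left out, quantile normalization, median centring and the mean of all rows, and the gap between the classes ran from 1.62 to 1.82. Counts of genes 2-fold apart stayed within 1.5 times under both normalizations, the filter on dim genes and the mean of all rows (126 to 170 higher, 35 to 47 lower). At 1.5-fold they were 316 and 164, and at 4-fold 49 and 8. Of genes that did not overlap at any fold, 74.8% were lower in the main setting and 87.1% with median centring. With single arrays left out, which makes no overlap easier to meet, 195 to 332 genes were higher and 48 to 121 lower, with 332, 286, 295 and 300 higher without wildtype 2, wildtype 3, knockout 2 or knockout 3 and 121, 101 and 85 lower without wildtype 3, knockout 3 or knockout 1. Without wildtype 1 or knockout 2 there were 67 lower genes each. The replicate block, which paired the high and low array of each replicate number, gave 234 higher and 65 lower genes. In the genotype fits, 0 genes were called with the replicate block, with or without the class term (1019 and 459 at an unadjusted p under 0.05). The labels do not say whether same-numbered arrays were paired. Correlations over genes between their deviations from the genotype means were -0.259, -0.228 and 0.075. Since each number held a high and a low array, these correlations cannot show whether samples were paired. The limma genotype fit without the class term called 0 to 3 genes with single arrays left out, with 3 only without knockout 2. With the class term 0 were called under every alternative run, with 436 to 1221 at an unadjusted p under 0.05. The 436 came from the filter on dim genes, which left 10716 genes. Of 1580 values for 158 named genes under 10 alternatives, 26 had the opposite sign, in 18 genes that all overlapped between the classes, and 4 differed by more than the pooled SD within classes. For a gene without overlap, leaving out an array cannot change the sign, and the replicate block gives the same mean difference. The 43 named genes 2-fold apart without overlap also kept their sign under quantile normalization, median centring and the mean of all rows. The number of arrays limits precision, and values below the array medians have no detection call.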
